A study of Homo sapiens with 8 samples.

Results

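Haem synthesis turns glycine and succinyl-CoA into the iron-holding ring of haemoglobin through a chain of enzymes that begins and ends in the mitochondrion. These 9 genes were chosen by symbol and encode the glycine carrier and enzymes of this chain: SLC25A38, ALAS1, ALAS2, ALAD, UROS, UROD, CPOX, PPOX and FECH. Each symbol matched 1 row in a table of 19718 coding genes. All 9 had at least 1 FPKM (fragments scaled to transcript length and library size) in at least 2 libraries and were tested, as were 11255 genes in all.

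RNA was sequenced from 2 lines of leukaemia cells in culture, 8 libraries in all. HEL92.1.7 is an erythroleukaemia line and a model of secondary acute myeloid leukaemia; it is called parental here. HEL OTX P/R is a derivative that persisted through and became resistant to OTX015 (birabresib), an inhibitor of BET proteins, which read acetylated histones. The 4 groups were P/R cells after 8 hours in 1000 nM OTX015, untreated P/R cells, parental cells after 8 hours in 1000 nM OTX015, and untreated parental cells, with 2 biological replicates each. All groups were grown in RPMI medium with fetal bovine serum. The sources used here do not say how the P/R line was selected or whether it is 1 clone.

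In the pathway, glycine enters the mitochondrion, for which SLC25A38 is the carrier in red cell precursors. 5-Aminolaevulinate synthase then makes the first committed intermediate; ALAS1 is its housekeeping form and ALAS2 the form of red cell precursors. The intermediate leaves for the cytosol, where ALAD joins 2 molecules into a pyrrole, UROS later closes the ring and UROD trims its side chains. CPOX and PPOX, back in the mitochondrion, oxidize the ring to protoporphyrin, and FECH inserts the iron. In developing red cells these genes are switched on together, with GATA1 as a main activator.

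The values are quantile normalized, so every library totals 678133 FPKM, the sequencing depth is unknown, and a change in total RNA would not be seen. Across tested genes, which are not independent of each other, r was 0.996 to 0.997 within groups and 0.959 to 0.985 across groups. The erythroleukaemia label was checked against markers. Of 11 erythroid markers, 10 had at least 1 FPKM in every library; the exception was SLC4A1, at most 0.243 FPKM. Of 6 megakaryocyte markers, 5 did, and VWF was at most 0.0151 FPKM. Of 5 monocyte and granulocyte markers only LYZ did, of 4 epithelial and stromal markers only KRT18, and of 4 lymphocyte markers none; ELANE, MS4A1 and COL1A2 were at 0 in every library. The summed erythroid markers ranged from 29455 to 29688 FPKM in P/R cells under OTX015, 27204 to 27422 in untreated P/R cells, 29992 to 30230.4 in parental cells under OTX015 and 28259 to 28263 in untreated parental cells. This sum was higher in treated than in untreated cells of both lines. It is carried by 4 globin genes, HBG1, HBG2, HBA1 and HBA2, with medians of 2408, 8990, 8517 and 7556 FPKM, and KLF1 of the same list fell under OTX015 in both lines. The summed megakaryocyte markers were lower: 627 to 697 FPKM in treated P/R cells against 761.7 to 767.7 in untreated P/R cells, and 482 to 495 in treated parental cells against 545 to 573 in untreated parental cells. The epithelial and stromal sum was 87.9 to 88.7 FPKM in treated and 74.9 to 75.9 in untreated P/R cells, against 13.6 to 14.3 in treated and 14.0 to 16.6 in untreated parental cells. The lymphocyte sum was 0.931 to 1.12 FPKM in treated against 3.08 to 3.31 in untreated P/R cells, and 2.58 to 2.67 in treated against 8.67 to 9.34 in untreated parental cells. Each of these 2 sums is carried mainly by 1 gene: KRT18, at 13.15 to 88.39 FPKM, and CD2, at 0.784 to 9.14 FPKM. They therefore describe single genes more than cell types. The monocyte and granulocyte sum lay between 9.85 and 13.3 FPKM in all libraries. The part of these sums in the results below was not tested. In such bulk samples, fewer cells of a type and less RNA per cell cannot be told apart.

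UROD had by far the highest level per length of the 9 genes. It ranged from 659 to 792 FPKM and made up 60.3% to 68.5% of their summed FPKM in a library, whereas no other member exceeded 119.5 FPKM. ALAD was the lowest member in all 4 group means, with single libraries from 10.8 to 23.7 FPKM. Between them lay ALAS2 at 90.7 to 101.7 FPKM, CPOX at 57.0 to 119.5, UROS at 51.7 to 61.2, FECH at 32.8 to 58.7, ALAS1 at 29.4 to 36.1, PPOX at 23.8 to 37.6 and SLC25A38 at 23.2 to 27.0 FPKM. The order below UROD depended on treatment: CPOX stood second in both treated groups, above ALAS2, and next below ALAS2 in both untreated groups. The replicates of neighbours in this order overlapped in only 3 places: ALAS1 and PPOX in treated P/R cells, FECH and ALAS1 in untreated P/R cells, and CPOX and UROS in untreated parental cells.

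**Figure D1:**
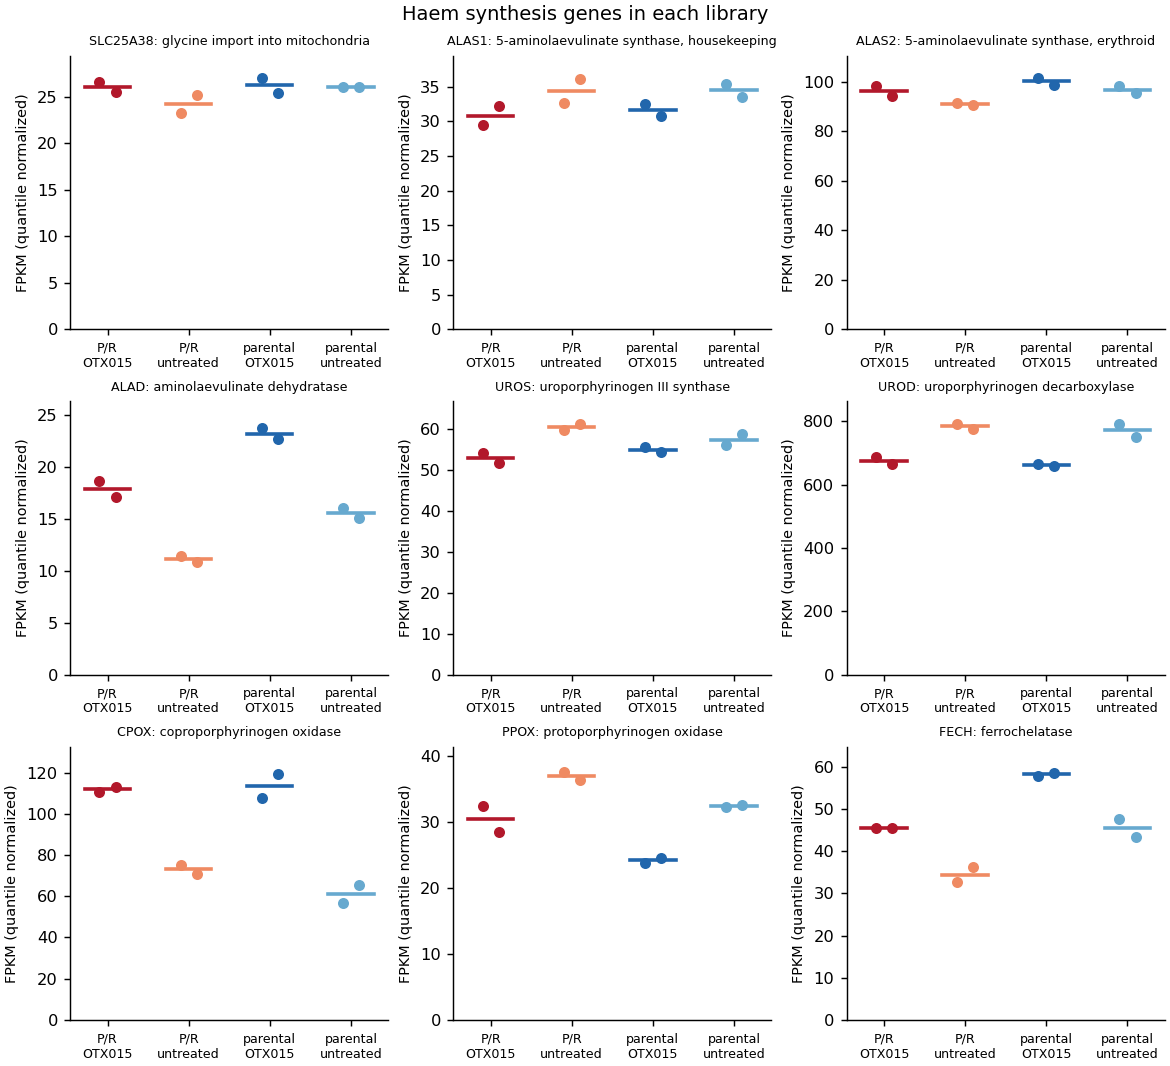
Level of each of the 9 haem synthesis genes in FPKM (quantile normalized, axis from 0) in the 4 groups; points are libraries, 2 per group, and lines are group means. ALAD, CPOX and FECH stand higher under OTX015 in both lines, UROD and PPOX lower, and ALAS2 lies between 90.7 and 101.7 FPKM throughout.

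OTX015 given for 8 hours was compared with no drug within each line. ALAD, CPOX and FECH rose in both lines, UROD and PPOX fell in both, and UROS fell in P/R cells. The entry of the pathway, with SLC25A38, ALAS1 and ALAS2, did not pass the test in either line. In P/R cells 3 members rose, 3 fell and 3 did not pass; in parental cells 3 rose, 2 fell and 4 did not pass. Over all 11255 genes 44.3% passed in P/R cells (22.5% higher, 21.8% lower) and 50.4% in parental cells (25.7% higher, 24.7% lower), and with 9 genes neither count is read as particular to the pathway. The median log2 change was 0.08 for the members against 0.01 for all genes tested in P/R cells, and 0.01 against 0.02 in parental cells.

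CPOX, the first oxidase of the mitochondrial end of the pathway, had the largest change in parental cells. It had 111 and 113 FPKM in treated P/R cells, against 75.2 and 70.9 FPKM in untreated P/R cells. In parental cells it had 108 and 119.5 FPKM under OTX015, against 57.0 and 65.7 FPKM without it. Treated and untreated libraries were apart in both lines, and the treated libraries of the 2 lines reached a like level. The ratio of means was 1.53 in P/R cells and 1.85 in parental cells. On the log2(FPKM + 1) scale, which is used for every change below, CPOX rose by 0.61 ± 0.08 (SE) in P/R cells (adjusted p = 0.000225) and by 0.88 ± 0.08 in parental cells (adjusted p = 2.05e-05). In parental cells 5.95% of tested genes changed by as much or more, and in P/R cells 10.6%. For the other members called in P/R cells this share ran from 9.44% (ALAD) to 54.8% (UROS). For those called in parental cells it ran from 17.4% (ALAD) to 54.2% (UROD). CPOX shares 163 of its 2821 exonic bases (5.78%) with the coding gene AC021660.3 on the same strand in GENCODE release 29, so a small part of its reads could belong to either.

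ALAD, the enzyme that makes the first pyrrole, had the largest change in P/R cells. It had 18.6 and 17.1 FPKM in treated P/R cells, against 11.4 and 10.8 FPKM in untreated P/R cells. Parental cells had 23.7 and 22.6 FPKM under OTX015, against 16.02 and 15.01 FPKM without it. Each line had both treated libraries above both untreated ones, and treated P/R cells were only a little above untreated parental cells. ALAD rose by 0.64 ± 0.07 in P/R cells (1.61-fold, adjusted p = 0.000167) and by 0.55 ± 0.07 in parental cells (1.49-fold, adjusted p = 0.000314).

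FECH, the iron-inserting last enzyme, also rose. It had 45.4 FPKM in both treated P/R libraries, against 32.8 and 36.2 FPKM in untreated P/R cells. In parental cells it had 57.9 and 58.7 FPKM under OTX015, against 47.8 and 43.4 FPKM without it. The groups did not overlap within a line, and treated P/R cells lay inside the range of untreated parental cells. The rise was 0.39 ± 0.07 in P/R cells (1.32-fold, adjusted p = 0.00132) and 0.35 ± 0.07 in parental cells (1.28-fold, adjusted p = 0.00196). The 2 treated P/R values are equal because both libraries gave FECH the same rank, so a spread of 0 understates its error.

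PPOX, which acts between CPOX and FECH and makes protoporphyrin, moved the other way. It had 32.5 and 28.5 FPKM in treated P/R cells, against 37.6 and 36.3 FPKM in untreated P/R cells. Parental cells had 23.8 and 24.6 FPKM under OTX015, against 32.2 and 32.6 FPKM without it. PPOX was lower in every treated library than in the untreated libraries of its line. It fell by 0.27 on the log2 scale in P/R cells (SE 0.07, adjusted p = 0.0111) and by 0.41 in parental cells (SE 0.07, adjusted p = 0.00115). The P/R call was lost without P/R OTX015 replicate 2 (a change of -0.18, adjusted p = 0.065) and without P/R untreated replicate 1 (adjusted p = 0.0715). Of the genes for the last 3 steps, the outer pair rose and the middle one fell. FECH over PPOX, as a ratio of FPKM, was 1.40 and 1.59 in treated P/R cells against 0.872 and 0.996 in untreated P/R cells, and 2.43 and 2.39 in treated parental cells against 1.48 and 1.33 in untreated parental cells.

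The cytosolic enzymes UROD and UROS changed less. UROD, which removes carboxyl groups from the closed ring, had 687 and 665 FPKM in treated P/R cells, against 792 and 775 FPKM in untreated P/R cells. Parental cells had 665 and 659 FPKM under OTX015, against 792 and 750.4 FPKM without it. All 4 treated libraries lay below all 4 untreated ones. UROD fell by 0.21 in P/R cells (SE 0.04, adjusted p = 0.00195) and by 0.22 in parental cells (SE 0.04, adjusted p = 0.00136). UROD had the same value in 2 pairs of libraries of different groups, since quantile normalization gives genes of equal rank equal values.

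UROS, which closes the ring in the form that leads to haem, had 54.0 and 51.7 FPKM in treated P/R cells, against 59.6 and 61.2 FPKM in untreated P/R cells, and fell by 0.19 (SE 0.05, adjusted p = 0.0154). Parental cells had 55.4 and 54.2 FPKM under OTX015, against 55.9 and 58.7 FPKM without it, a change of -0.06 (95% interval -0.18 to 0.05, adjusted p = 0.338). The P/R call was lost without P/R OTX015 replicate 2 (adjusted p = 0.072) and without either untreated P/R library, replicate 1 (adjusted p = 0.0522) or replicate 2 (adjusted p = 0.0994).

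ALAS2 and SLC25A38 varied least of the 9 members. ALAS2, the synthase of red cell precursors, had 98.4 and 94.2 FPKM in treated P/R cells, against 91.5 and 90.7 FPKM in untreated P/R cells. In parental cells it had 101.7 and 98.7 FPKM under OTX015, against 98.3 and 95.4 FPKM without it. Its changes were 0.08 in P/R cells (95% interval -0.02 to 0.18, adjusted p = 0.191) and 0.05 in parental cells (-0.05 to 0.15, adjusted p = 0.402). The SD of its log2 values over all 8 libraries was 0.0533, the smallest of the 9 members, against 0.388 for CPOX and 0.362 for ALAD.

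ALAS1, the housekeeping synthase, had 29.4 and 32.1 FPKM in treated P/R cells, against 32.6 and 36.1 FPKM in untreated P/R cells. Parental cells had 32.5 and 30.8 FPKM under OTX015, against 35.4 and 33.5 FPKM without it. Its changes were -0.15 in P/R cells (95% interval -0.32 to 0.01, adjusted p = 0.116) and -0.12 in parental cells (-0.28 to 0.05, adjusted p = 0.203). The FPKM of ALAS2 over that of ALAS1 was 3.34 and 2.93 in treated P/R cells against 2.80 and 2.51 in untreated P/R cells, and 3.13 and 3.21 in treated parental cells against 2.77 and 2.85 in untreated parental cells. The erythroid form was therefore the more abundant of the pair in all 8 libraries.

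SLC25A38, the glycine carrier, had 26.6 and 25.5 FPKM in treated P/R cells, against 23.2 and 25.2 FPKM in untreated P/R cells. Parental cells had 27.0 and 25.4 FPKM under OTX015, against 25.99 and 26 FPKM without it. The treated and untreated ranges overlapped in parental cells and were apart in P/R cells. Its changes were 0.10 in P/R cells (95% interval -0.04 to 0.25, adjusted p = 0.227) and 0.01 in parental cells (-0.14 to 0.16, adjusted p = 0.906). The treated and untreated libraries of ALAS1, ALAS2 and UROS were apart in both lines, though of these only UROS in P/R cells passed. Such separation of 2 against 2 libraries therefore did not mark out the genes that passed.

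**Figure D2:**
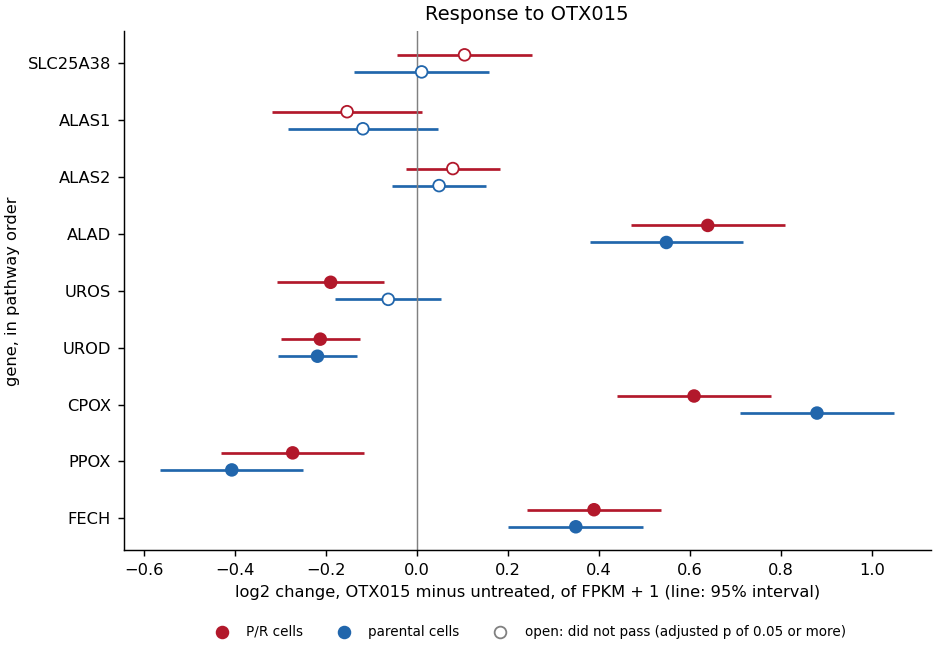
Log2 change of FPKM + 1, OTX015 minus untreated, of the 9 genes in pathway order, in P/R and parental cells; lines are 95% intervals of the limma fit and open points did not pass. ALAD, CPOX and FECH lie to the right of 0 in both lines, UROD and PPOX to the left, and CPOX has the largest gap between the lines (0.61 and 0.88).

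Whether the lines responded differently was tested directly, as the change in P/R cells minus the change in parental cells. None of the 9 members passed limma's test at an adjusted p under 0.05, and 1, CPOX, had an unadjusted p under 0.05. Over all genes 0.08% passed at the adjusted threshold (0.0622% higher, 0.0178% lower). An unadjusted p under 0.05 was found for 1080 of all 11255 genes, so 1 of 9 members is not read as particular to the pathway. CPOX had a difference of -0.27 (95% interval -0.51 to -0.03, unadjusted p = 0.0308, adjusted p = 0.449), which means a smaller rise in P/R cells. For PPOX the difference was 0.13 (-0.09 to 0.36, adjusted p = 0.725), for UROS -0.13 (-0.29 to 0.04, adjusted p = 0.631) and for ALAD 0.09 (-0.15 to 0.33, adjusted p = 0.844). The other members had differences of -0.03 to 0.09, with adjusted p from 0.804 to 0.987. UROS passed in P/R cells and not in parental cells, but its responses are not shown to differ. The intervals of ALAD, PPOX and SLC25A38 reach up to 0.33, 0.36 and 0.30, so differences of that size lie within them.

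The next comparison asks how the resistant derivative differs from the parental line before any drug. ALAD and FECH were lower in untreated P/R cells, CPOX was higher, and 6 members did not pass, in a comparison where 23.5% of all genes passed (11.7% higher, 11.9% lower). ALAD had 11.4 and 10.8 FPKM in P/R cells against 16.02 and 15.01 FPKM in parental cells, a difference of -0.45 (SE 0.07, adjusted p = 0.00222). FECH had 32.8 and 36.2 FPKM in P/R cells against 47.8 and 43.4 FPKM in parental cells, a difference of -0.39 (SE 0.07, adjusted p = 0.00223). For both genes the 2 lines were apart in every library. As ratios of mean FPKM, the RNA of ALAD and FECH was at 0.716 and 0.756 of the parental level.

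CPOX had 75.2 and 70.9 FPKM in untreated P/R cells against 57.0 and 65.7 FPKM in untreated parental cells (0.25 ± 0.08, adjusted p = 0.0388). This call is fragile. It was lost without P/R untreated replicate 1 (adjusted p = 0.199) or 2 (0.0763), without parental untreated replicate 1 (a difference of 0.15, adjusted p = 0.232), without either treated P/R library (0.0552 each), without the filter on low values (0.184), without the variance trend (0.0903) and in a fit of the untreated groups alone (0.0598).

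PPOX had 37.6 and 36.3 FPKM in untreated P/R cells against 32.2 and 32.6 FPKM in untreated parental cells, a difference of 0.18 (95% interval 0.03 to 0.34) that missed the threshold (adjusted p = 0.0891) but passed without P/R OTX015 replicate 1 (adjusted p = 0.0449) or replicate 2 (0.0441). The other 5 members had differences of -0.10 to 0.07. Among them, ALAS1 and UROD overlapped between the lines.

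Under OTX015, ALAD and FECH were again lower in P/R cells and PPOX was higher, and 6 members did not pass; 24.4% of all genes passed (12.7% higher, 11.7% lower). ALAD had 18.6 and 17.1 FPKM in P/R cells against 23.7 and 22.6 FPKM in parental cells, a difference of -0.36 (SE 0.07, adjusted p = 0.00749), which was not called without parental OTX015 replicate 1 (-0.33, adjusted p = 0.0579). FECH had 45.4 FPKM in both P/R libraries against 57.9 and 58.7 FPKM in parental cells, a difference of -0.35 (SE 0.07, adjusted p = 0.00396). PPOX had 32.5 and 28.5 FPKM in P/R cells against 23.8 and 24.6 FPKM in parental cells, 1.26-fold higher (0.32 ± 0.07, adjusted p = 0.00933). The PPOX call was lost without P/R OTX015 replicate 1 (0.23, adjusted p = 0.0558), without parental OTX015 replicate 1 (adjusted p = 0.0595) and without the filter on low values (adjusted p = 0.0505).

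CPOX had 111 and 113 FPKM in treated P/R cells against 108 and 119.5 FPKM in treated parental cells, a difference of -0.02 (95% interval -0.19 to 0.15, adjusted p = 0.884). The line comparisons with and without drug rest on different libraries, but they and the drug comparisons share groups, so they do not count as independent of the responses above. FECH was lower in P/R cells in both line comparisons. It is the 1 member whose calls held in all 4 comparisons under every alternative other than a threshold on the size of the change. Its 2 treated P/R values are equal, so leaving out either cannot move their mean. Their spread of 0 also understates the error, so this steadiness rests partly on equal ranks.

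**Figure D3:**
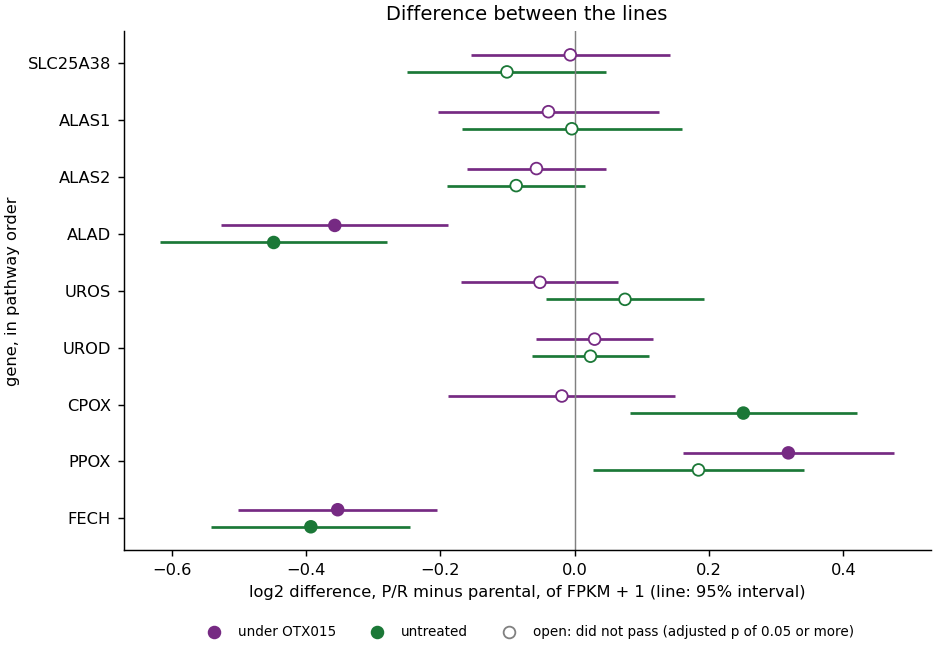
Log2 difference of FPKM + 1, P/R minus parental, of the 9 genes in pathway order, under OTX015 and untreated; lines are 95% intervals of the limma fit and open points did not pass. ALAD and FECH lie between -0.45 and -0.35 in both conditions, PPOX lies to the right of 0, and CPOX lies at -0.02 under OTX015 and 0.25 untreated.

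Promoter sequences are shown for genes that behaved differently under the drug: CPOX and FECH, which rose, and ALAS2, which did not pass. They are the 250 bases before the start of each gene, 5′ to 3′, from RefSeq on GRCh38.p14, all on the minus strand: CPOX at chr3:98593612-98593861, FECH at chr18:57586703-57586952 and ALAS2 at chrX:55030978-55031227. The capitals mark AGATAA, a form of the motif of GATA factors, here read on the opposite strand as TTATCT.
CPOX: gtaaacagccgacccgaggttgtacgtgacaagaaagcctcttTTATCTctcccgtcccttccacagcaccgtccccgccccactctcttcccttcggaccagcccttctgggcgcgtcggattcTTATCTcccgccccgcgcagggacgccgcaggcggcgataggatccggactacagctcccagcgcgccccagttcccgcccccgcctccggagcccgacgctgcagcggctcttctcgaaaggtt
FECH: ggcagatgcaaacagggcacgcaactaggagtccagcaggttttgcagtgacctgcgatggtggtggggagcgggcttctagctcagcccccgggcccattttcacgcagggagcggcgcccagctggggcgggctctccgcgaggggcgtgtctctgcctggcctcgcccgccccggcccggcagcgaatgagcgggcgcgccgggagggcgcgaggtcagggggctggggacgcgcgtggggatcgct
ALAS2: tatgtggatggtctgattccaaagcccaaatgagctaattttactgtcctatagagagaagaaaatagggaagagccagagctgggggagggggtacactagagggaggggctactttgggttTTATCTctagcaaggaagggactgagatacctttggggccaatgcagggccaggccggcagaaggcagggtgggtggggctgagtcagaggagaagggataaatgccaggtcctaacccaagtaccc

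The RefSeq table held 10 promoter windows of 300 bases (250 before and 50 after the start) for 8 members; all but UROS. AGATAA, searched on both strands, occurred 2 times in the CPOX window, beginning 207 and 125 bases before the start, and 1 time in ALAS2, 127 bases before it. It also occurred in 1 of the 2 windows of PPOX, and not in those of SLC25A38, ALAS1, ALAD, UROD or FECH. Over 35116 windows of all genes, 10.3% held AGATAA and 1.02% held it at least 2 times. These letters stood in CPOX, which rose, in PPOX, which fell, and in ALAS2, which passed in neither direction; ALAD and FECH rose and lacked them. GGGCGG, the core of GC boxes, was found in ALAS1, ALAD, UROD, CPOX, PPOX and FECH, and in 45% of all windows. TGAGTCA, a site form of NF-E2 and AP-1 factors, was found in ALAS2 alone among the members and in 4.95% of all windows, and TATAAA in ALAS1 alone and in 11.5% of all windows. Within a window, no 2 of these matches overlapped, and a match describes letters, not a bound site.

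ALAS2 differs from ALAS1 in a hairpin at the start of its messenger RNA, the iron-responsive element, through which iron regulatory proteins (encoded by ACO1 and IREB2) hold back its translation when iron is short. Its DNA letters follow, from RefSeq on GRCh38.p14 at chrX:55030942-55030967, minus strand, with the loop in capitals.
ALAS2 element: cgttcgtcctCAGTGCagggcaacag
The pattern searched was CAGTGN with a C 6 bases before it and 5 bases on each side able to pair, G with T included, on the transcribed strand of the 50 bases after the start. It matched in 8 of 35116 windows (0.0228%), and among the members in ALAS2 alone. ACO1 rose in both lines, to 30.2 ± 0.01 FPKM in treated P/R cells against 22.2 ± 0.61 FPKM in untreated P/R cells, and to 32.5 ± 1.497 FPKM in treated parental cells against 24.5 ± 1.15 FPKM in untreated parental cells (here and below, ± gives the SD of 2 libraries). IREB2 rose in parental cells (0.33, adjusted p = 0.0141), at 20.3 ± 2.76 FPKM under OTX015 against 15.9 ± 0.35 FPKM without it. Its change in P/R cells was 0.08 (adjusted p = 0.52), and it was named after its values were seen. Messenger RNA levels do not show translation, so the level of ALAS2 protein was not measured here.

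The members were also set beside the tested genes whose pattern over the 8 libraries was most like theirs, by the root mean square difference of log2 values, each gene centred on its own mean. For CPOX these were TTLL7, CBFA2T2, ADRA2A, ACAD8 and JAK1, at 0.061 to 0.071 from it. ACAD8, an enzyme of valine breakdown, had 52.6 FPKM in treated P/R cells against 32.3 FPKM in untreated P/R cells, and 49.8 FPKM in treated parental cells against 26.7 FPKM in untreated parental cells. For ALAS2 the nearest were EIF2B4, HMGXB3, PRPF31, PEX10 and FKBP8, at 0.017 to 0.025. For ALAS1 they were JAGN1, MRPS24, LMCD1, THYN1 and CNPY2, at 0.029 to 0.036. ALAS1 and ALAS2 vary little, so their nearest genes are others that vary little.

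Other genes around the pathway were described from fixed lists, by counts. Their calls under OTX015 stand beside 44.3% of all genes in P/R cells (22.5% higher, 21.8% lower). In parental cells the share of all genes was 50.4% (25.7% higher, 24.7% lower). With so few genes per list, no count is read as particular to its list. Among 8 genes of glycine and succinyl-CoA supply, 2 rose and 1 fell in P/R cells, and 3 rose and 1 fell in parental cells. SLC6A9, a glycine transporter of the cell surface, fell to 21.3 and 18.4 FPKM in treated P/R cells, against 36.6 and 39.4 FPKM in untreated P/R cells (-0.91, adjusted p = 4.04e-05). In parental cells it fell to 12.8 ± 0.67 FPKM under OTX015, against 32.0 ± 0.43 FPKM without it (-1.26, adjusted p = 4.82e-06). OGDH and DLST, subunits of the complex that makes succinyl-CoA, rose by 0.58 and 0.43 in P/R cells and by 0.56 and 0.55 in parental cells. SHMT2, which makes glycine in the mitochondrion and is the other gene of this list that rose in parental cells, changed there by 0.15 (adjusted p = 0.0215); its change in P/R cells was 0.09 (adjusted p = 0.16). It was named after its values were seen. The median change of this list was 0.06 in P/R cells and 0.08 in parental cells.

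Of 15 genes of porphyrin, haem and mitochondrial iron transport, 12 were tested; 4 rose and 1 fell in P/R cells, and 5 rose and 1 fell in parental cells (median 0.13 and 0.05). ABCB6, a porphyrin transporter, had 70.5 ± 2.99 FPKM in treated P/R cells against 46.6 ± 4.66 FPKM in untreated P/R cells, and 72.6 ± 0.44 FPKM in treated parental cells against 51.1 ± 3.81 FPKM in untreated parental cells. ABCB10, a mitochondrial carrier needed for haem synthesis in red cell precursors, rose by 0.31 in P/R cells and 0.48 in parental cells. FLVCR1, a haem exporter, rose in P/R cells (0.45, adjusted p = 0.00563) and had a change of -0.06 in parental cells (adjusted p = 0.634), at 3.11 to 4.74 FPKM. No gene of any of these 5 lists passed the test of the difference in response.

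Of 7 genes of haem conversion and breakdown, 1 rose and 1 fell in P/R cells and 2 rose in parental cells (median 0.05 and -0.01). HMOX2, the constitutive haem oxygenase, had 38.1 ± 1.72 FPKM in treated P/R cells against 26.2 ± 0.06 FPKM in untreated P/R cells, and 45.3 ± 5.998 FPKM in treated parental cells against 26.4 ± 0.62 FPKM in untreated parental cells. HMOX1, the inducible form, rose in parental cells (0.37, adjusted p = 0.0139), and its change in P/R cells was 0.27 (adjusted p = 0.0599). HCCS, which joins haem to cytochrome c, fell in P/R cells by 0.22.

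Of 8 genes of iron-sulphur cluster assembly, which supplies the cluster of FECH, 2 rose and 2 fell in P/R cells, and 2 rose and 1 fell in parental cells (median -0.02 and -0.05). IBA57, a late assembly factor, rose by 0.54 and 0.64, and ISCU, the scaffold protein, by 0.47 and 0.43, in P/R and parental cells. HSCB, a co-chaperone of cluster transfer, fell in P/R cells by 0.36 (adjusted p = 0.0237), and its change in parental cells was -0.15 (adjusted p = 0.278).

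Of 12 regulators, 11 were tested; 3 rose and 2 fell in P/R cells, and 6 rose and 2 fell in parental cells (median 0.08 and 0.14). EIF2AK1, a kinase that haem inhibits, rose by 0.55 in P/R cells and 0.45 in parental cells. BACH1, a haem-sensing repressor, rose in parental cells by 0.45 (adjusted p = 0.0054), with a change of 0.20 in P/R cells (adjusted p = 0.141). GATA1 and KLF1, named after their values were seen because they activate red cell genes, went in opposite directions. GATA1 rose to 383 ± 3.73 FPKM in treated P/R cells, against 339.5 ± 1.97 FPKM in untreated P/R cells (0.17), and to 369 ± 1.07 FPKM in treated parental cells, against 335 ± 11.6 FPKM in untreated parental cells (0.14). KLF1 fell by 0.18 in P/R cells and by 0.36 in parental cells. In the same list NFE2 fell in parental cells (-0.25, adjusted p = 0.000654), with a change of -0.07 in P/R cells (adjusted p = 0.184). TAL1 did not pass in P/R cells (-0.01, adjusted p = 0.914) or in parental cells (0.10, adjusted p = 0.2). NFE2 and TAL1 were also named after their values were seen.

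**Figure D4:**
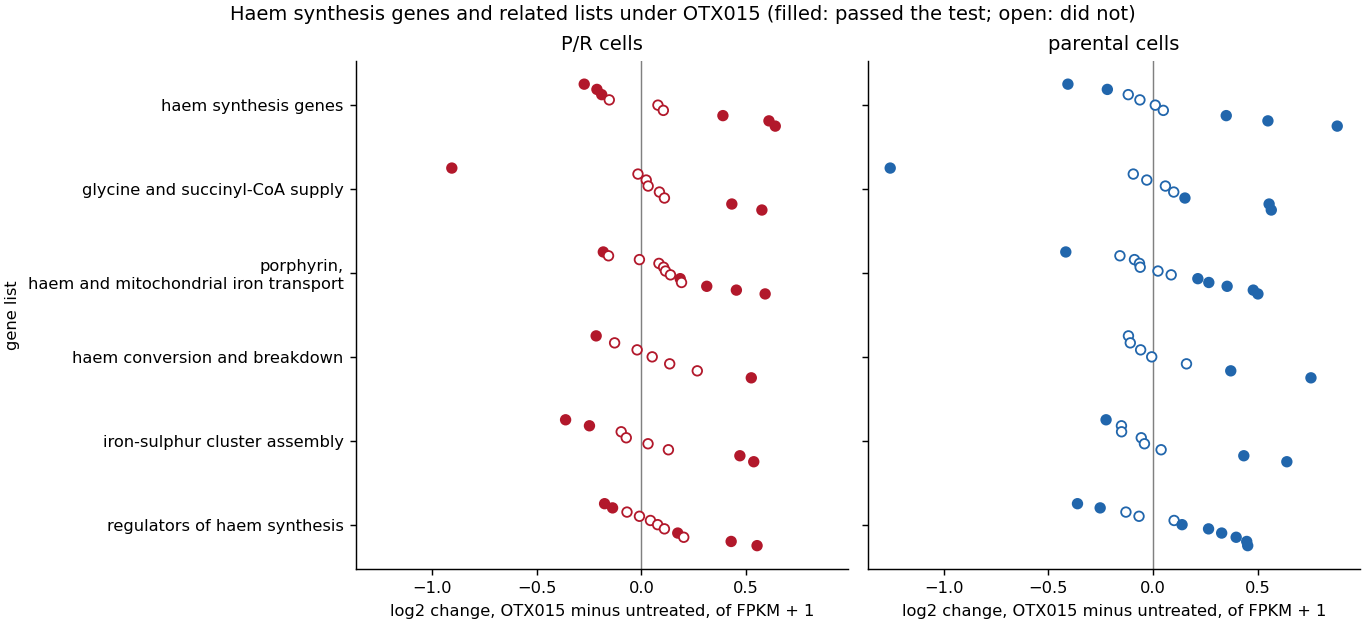
Log2 change of FPKM + 1, OTX015 minus untreated, of the 9 haem synthesis genes and of the tested genes of 5 related lists, in P/R and parental cells; each point is 1 gene, filled where it passed the limma test. Each list has points on both sides of 0, and the point farthest to the left is SLC6A9 in both lines (-0.91 and -1.26).

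Between the lines, the calls of the lists stood beside 23.5% of all genes untreated and 24.4% under OTX015. Untreated, 2 of 8 supply genes, 3 of 12 transport genes, 4 of 7 conversion and breakdown genes, 1 of 8 iron-sulphur genes and 2 of 11 regulators passed. Under OTX015 the counts were 2 of 8, 4 of 12, 4 of 7, 0 of 8 and 2 of 11. Of the 8 iron-sulphur genes, 2 had an unadjusted p under 0.05 there in limma's test, as did 4062 of all 11255 genes. The genes named next were chosen after their values were seen. The haem breakdown genes BLVRA, BLVRB and HMOX1 were lower in P/R cells in both conditions. HMOX2, the other haem oxygenase of the list, did not pass untreated (-0.01, adjusted p = 0.945) or under OTX015 (-0.24, adjusted p = 0.0678). The haem A synthesis gene COX10 was higher in P/R cells, at 19.3 ± 1.35 FPKM in untreated P/R cells against 11.6 ± 0.44 FPKM in untreated parental cells. In the transport list, SLC25A39, a mitochondrial glutathione carrier, was lower in P/R cells, with differences of -0.63 untreated and -0.71 under OTX015. TSPO, an outer mitochondrial membrane protein that binds porphyrins, was higher, with a difference of 0.61 in both conditions.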

How the data were processed

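The authors deposited 1 table of 19718 coding genes in 8 libraries. Its header names no unit. FPKM is inferred, because values are fractional and at least 0 and because Cufflinks 2.0 is named, with TopHat2 2.0 and hg19, per the submitters' processing notes. The deposited FPKM are quantile normalized, since the libraries' sorted values, where they average 1 FPKM or above, differ by 0.136% at most. The sources used here do not give strandedness, annotation or filters. Depth cannot be recovered, so no counting interval is given, and coordinates are given only for RefSeq promoter windows, on GRCh38.p14, not on the build of the table.

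Genes with at least 1 FPKM in at least 2 libraries were tested on log2(FPKM + 1), which understates the change of low genes. limma 3.58.1 in R 4.3.3 estimated the mean of each of the 4 groups (variance trend, 4 residual and 5.23 prior degrees of freedom) for 5 two-sided comparisons, with Benjamini-Hochberg adjustment over all 11255 genes and a threshold of 0.05. Every adjusted p is from this fit unless an alternative is named beside it. An exact permutation test of 2 against 2 libraries cannot go below 0.333. In simulated data for OTX015 in parental cells (11255 genes), limma recovered 49.3% of changes of 0.3, 89.6% of 0.5 and 100% of 1 (log2 units). It made 10 false calls there. The changes were planted in only 67, 67 and 66 genes, all with a mean log2 level above that of 5 FPKM. All other genes had no change, and the noise was normal and independent. In the data 50.4% of genes passed this comparison, so neither the recovery nor the false calls carry over to it. Recovery of the same sizes, planted in the same genes, was 14.9%, 64.2% and 97% for the difference in response. In the data only 9 genes (0.08%) passed that test, which makes its cutoff stricter, so these rates can be too high for it.

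The members, lists and tests were chosen with earlier results of these data known; 2 listed genes are not reported here and are left out of the lists' counts. All members were named, with up to 3 genes per list by size of a change under OTX015 that passed, and the 5 genes nearest in pattern to ALAS1, ALAS2 and the member with the largest change. Alternatives tried were median centring, pseudocounts of 0.1 and 5, no variance trend, a filter at a mean of 5 FPKM or none, only the groups compared, a block by replicate number, a minimum change of 0.5, and omission of each library in turn. Exon overlaps come from GENCODE release 29.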

Additional observations from a re-analysis of the deposited data

How the results depend on the processing

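Of the 17 calls of members, 12 held under all alternatives other than a threshold on the size of the change, and none of the 17 turned direction. The calls lost were UROS and PPOX under OTX015 in P/R cells, CPOX between untreated lines, and ALAD and PPOX between treated lines. Asking for a change of at least 0.5 as well left 2 members under OTX015 in P/R cells and 2 in parental cells (ALAD and CPOX in both), and 0 in both comparisons between the lines. With each library left out in turn, 4 to 6 members passed under OTX015 in P/R cells, 5 in parental cells, 2 to 3 between untreated lines, 1 to 3 between treated lines (1 without parental OTX015 replicate 1) and 0 in the difference in response.

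Members that did not pass could change sign when a library was left out; the largest value with a changed sign was 0.0675. The ranges were -0.032 to 0.052 for SLC25A38 under OTX015 in parental cells; -0.076 to 0.067 for ALAS1 and -0.016 to 0.063 for UROD between untreated lines; and -0.101 to 0.022 for ALAS1, -0.049 to 0.035 for SLC25A38 and -0.095 to 0.057 for CPOX between treated lines. In the difference in response they were -0.107 to 0.037 for ALAS1, -0.00037 to 0.061 for ALAS2, -0.033 to 0.045 for UROD and -0.028 to 0.108 for FECH.

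With the replicate number as a block, 6 and 5 members passed under OTX015 in P/R and parental cells, 3 in each line comparison and 0 in the difference, the same numbers as without it. The numbers are not shown to pair the libraries: deviations of same-numbered libraries correlated at -0.12 to 0.104 between groups. With the numbers of treated P/R cells exchanged, chosen after seeing the data, 3 members passed between treated lines. Over all genes, the 2647 calls between untreated lines became 1614 and 1689 without P/R untreated replicate 1 and 2, and the 2747 between treated lines became 1763 without parental OTX015 replicate 1. With a change of at least 0.5 required, 1801 genes passed under OTX015 in P/R cells against 4981, 2268 against 5667 in parental cells, and 1093 in each line comparison. The 9 calls of the difference in response became 2 to 8 with a library left out, 26 without the filter and 29 with a pseudocount of 5; they became 3 without the variance trend, 4 with a pseudocount of 0.1 and 2 with the block. The cause of these moves was not tested.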
